A study of Mus musculus with 2 samples.

Results

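Scavenger receptors of tumour macrophages were followed through 9 genes: Mrc1, Cd163, Stab1, Msr1, Marco, Cd36, Folr2, Lyve1 and Fcrls. They were chosen by symbol, with no measured value in the rule, and all 9 were found among the 31053 genes counted. Scavenger receptors are surface proteins with which macrophages take up modified lipoproteins, sugar-bearing glycoproteins, haemoglobin, matrix fragments and bacteria, and several serve as markers of tissue-resident or alternatively activated macrophages. Mrc1 (the mannose receptor CD206) and Stab1 (stabilin-1) clear glycoproteins and matrix fragments, Msr1 (scavenger receptor A) and Marco are class A receptors for modified lipoproteins and bacteria, and Cd36 binds oxidised lipoproteins and long-chain fatty acids. Cd163 takes up haemoglobin bound to haptoglobin, Folr2 binds folate, Lyve1 binds hyaluronan on lymphatic endothelium and on some resident macrophages, and Fcrls is an Fc receptor-like scavenger receptor known as a microglial marker.

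The cells were live (7-AAD-negative) CD45+ cells sorted from B16 melanomas of C57BL/6 mice aged 8 weeks, and single-cell RNA sequencing gave 1 library per genotype from several pooled mice. Both genotypes were homozygous for floxed Mettl3, which encodes the RNA N6-methyladenosine methyltransferase: Mettl3 fl/fl Lyz2 +/+ mice were labelled WT, and Mettl3 fl/fl Lyz2 cre/+ mice, in which Cre is driven from the Lyz2 locus of macrophages, monocytes and granulocytes, were labelled KO. The comparison asks how the receptors differ when Mettl3 is removed from myeloid cells. There were no replicates, so no test between genotypes was possible, and every difference is one between these 2 libraries. All intervals are exact 95% intervals that cover counting error only: Poisson for levels, Clopper-Pearson for shares, and the split of the unique molecular identifiers (UMIs) between libraries for ratios.

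The library labelled WT held 45963969 UMIs in 5895 barcodes and the library labelled KO 54052317 UMIs in 8446 barcodes, and 13 barcode sequences occurred in both. After filtering, 5405 and 7625 cells remained. Marker gates placed 1603 cells labelled WT (29.7%) and 1968 labelled KO (25.8%) in the macrophage class and 956 (17.7%) and 2426 (31.8%) in the monocyte class. All 7 macrophage markers (C1qa, C1qb, C1qc, Adgre1, Trem2, Ms4a7 and Mertk) were highest in the macrophage-gated cells. These genes define the gate, so this order was built in and does not check the class. Among the monocyte markers, Ly6c2 was highest in plasmacytoid DC-gated cells, and Hp and Thbs1 in granulocyte-gated cells. The median depth of macrophage-gated cells was 10094 UMIs in the library labelled WT and 7323.5 in that labelled KO. A macrophage score less than 0.1 above the monocyte score was found in 5.43% of macrophage-gated cells in the first library and 10.4% in the second. Ptprc, which encodes CD45, was at 8.13 and 6.67 CPM (the UMIs of a gene summed over a class, per 1000000 of all its UMIs) in melanoma-gated cells against 335 and 349.7 CPM in macrophage-gated cells. Mettl3 stood at 9.91 CPM (8.56 to 11.4) in macrophage-gated cells labelled WT and 11.1 CPM (9.60 to 12.7) in those labelled KO, a log2 ratio of 0.16 (-0.13 to 0.45). Mettl3 was thus not lower under the KO label. UMIs read at the 3′ end can also count transcripts that lack an internal exon, and the deleted part is not given in the sources used here, so these values may not check the labels, and the libraries are called here by their labels.

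Upstream sequences are shown for Mrc1 and Stab1, which moved alike between the libraries, for Folr2, a resident-type receptor far lower in monocyte-gated cells, and for Fcrls, which differed most among the members above 10 CPM. They are from RefSeq on GRCm38.p6, written 5′ to 3′ on the gene's strand, and cut where GENCODE M21 annotates an exon of the gene, so that Fcrls is shown only by the 78 bases between 2 of its alternative first exons. Of the 9 genes, 7 had an entry, and Msr1 and Lyve1 had none. Capitals mark matches on either strand to GAGGAA, the core bound by the myeloid factor PU.1, and to TGCTGA, the start of the MAF recognition element.
Mrc1, chr2:14229164-14229391, plus strand: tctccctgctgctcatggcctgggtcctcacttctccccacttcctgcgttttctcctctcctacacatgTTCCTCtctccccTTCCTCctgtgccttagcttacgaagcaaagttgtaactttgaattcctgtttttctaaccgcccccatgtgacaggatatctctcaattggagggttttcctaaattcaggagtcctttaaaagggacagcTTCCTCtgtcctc
Stab1, chr14:31168642-31168891, minus strand: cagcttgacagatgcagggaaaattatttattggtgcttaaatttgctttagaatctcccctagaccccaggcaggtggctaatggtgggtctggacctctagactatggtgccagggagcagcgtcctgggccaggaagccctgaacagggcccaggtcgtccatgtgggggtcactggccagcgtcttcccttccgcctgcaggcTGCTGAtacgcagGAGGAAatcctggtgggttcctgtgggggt
Folr2, chr7:101857195-101857440, minus strand: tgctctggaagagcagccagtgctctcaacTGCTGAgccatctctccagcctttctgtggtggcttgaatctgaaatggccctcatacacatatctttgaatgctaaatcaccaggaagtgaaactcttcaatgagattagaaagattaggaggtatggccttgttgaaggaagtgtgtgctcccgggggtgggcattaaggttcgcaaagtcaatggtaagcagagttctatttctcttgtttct
Fcrls, chr3:87263600-87263677, minus strand: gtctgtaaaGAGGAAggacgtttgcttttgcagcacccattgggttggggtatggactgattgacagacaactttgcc
GAGGAA or its complement occurred in 23.3% of the 32851 RefSeq windows of 250 upstream bases, and TGCTGA in 16.1%. Mrc1 held 3 matches to the PU.1 core, all on the opposite strand, Stab1 and Fcrls held 1 each, and Folr2 held none. The MAF site matched once in Stab1 and once in Folr2, and no match overlapped another. Neither TGANTCA, the AP-1 site (6.75% of windows), nor TTCNNNGAA, the STAT site (7.02%), was in these 4 stretches. These matches describe letters, not bound sites.

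The receptors were carried mainly by macrophage-gated cells, which held 72.3% (Msr1) to 91.4% (Folr2) of the UMIs of the 6 more abundant genes in the library labelled WT and 57.6% (Msr1) to 88.8% (Folr2) in that labelled KO. Together with monocyte-gated cells the share ran from 84.1% (Cd36) to 93.7% (Folr2) under the WT label and from 83.7% (Cd36) to 95.1% (Folr2) under the KO label. In both libraries 7 of the 9 genes had their highest level in macrophage-gated cells, the exceptions being Msr1 and Cd163, although the interval of the next class overlapped for Lyve1 in both libraries and for Marco under the WT label. Stab1 and Folr2 were far lower in monocyte-gated cells. Stab1 (chr14:31139013-31168641) was at 589 and 504 CPM in macrophage-gated cells and at 70.0 and 82.7 CPM in monocyte-gated cells, while Folr2 (chr7:101839988-101857194) was at 87.8 and 82.7 CPM in the former and 9.03 and 10.3 CPM in the latter. Msr1 (chr8:39581685-39642673) instead was shared between the classes, at 368 CPM in macrophage-gated and 333 CPM in monocyte-gated cells labelled WT. Under the KO label Msr1 was at 441 and 444 CPM in these classes, and the intervals of the 2 levels overlapped.

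Some receptors reached into dendritic cells. Mrc1 (chr2:14229392-14332057) was at 223 CPM (195 to 253) in cDC2-gated cells labelled WT, next to 239 CPM (225 to 253) in monocyte-gated cells, and the intervals of these neighbours overlapped. Under the KO label it was at 137 CPM in cDC2-gated cells, below the 202 CPM of monocyte-gated cells. Cd36 (chr5:17781690-17888801) was at 103 and 117 CPM in cDC1-gated cells, whose share with a UMI was 46.1% and 48.98%, against 4.93% and 4.62% of the shallower T-gated cells. The median depth of cDC1-gated cells was 11355 and 9686.5 UMIs, and in cells thinned to 1000 UMIs the shares were 8.77% and 8.25%, against 1.52% and 1.85% of T-gated cells. The intervals of this level and that of monocyte-gated cells (99.4 and 144 CPM) overlapped in both libraries. Fcrls (chr3:87250758-87263738) had its second highest level in cDC2-gated cells labelled WT (14.5 CPM, 15 UMIs) but only 1 UMI in those labelled KO.

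**Figure D1:**
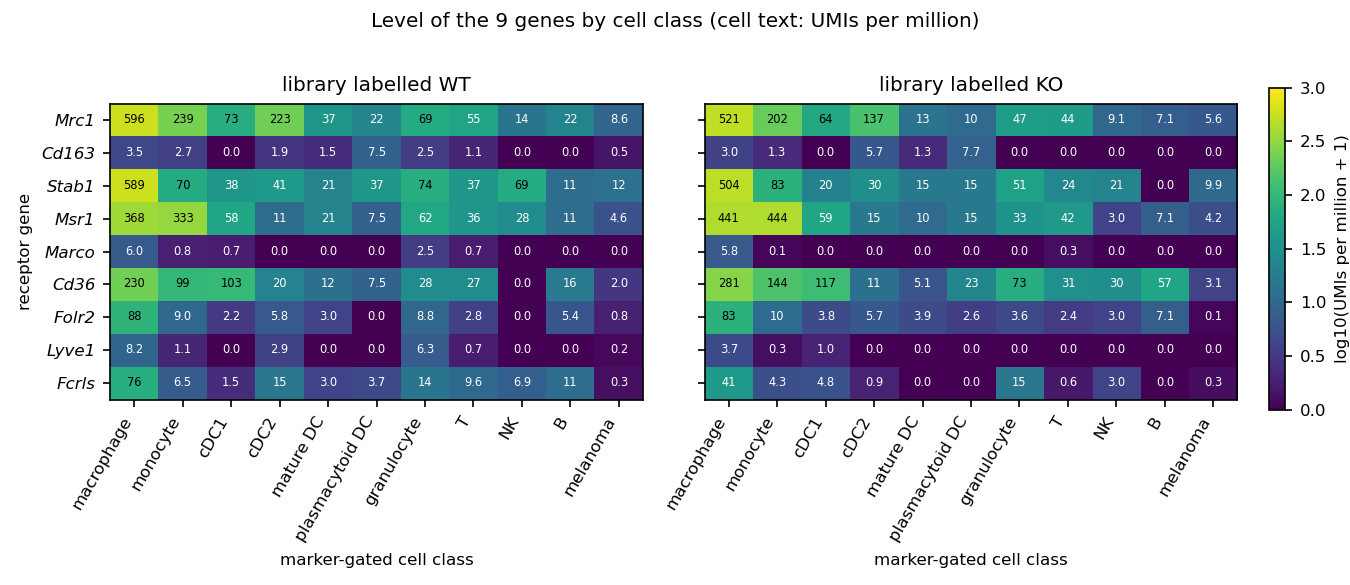
Level of each of the 9 receptor genes (rows) in each marker-gated cell class (columns), for the library labelled WT (left) and the library labelled KO (right), in CPM summed over the class, with colour on a log10 scale. Mrc1, Stab1, Msr1 and Cd36 lead in macrophage-gated cells at 230.3 to 596 CPM, Msr1 is as high in monocyte-gated cells under the KO label but lower there under the WT label (333 against 368 CPM), and Cd163, Marco and Lyve1 stay below 10 CPM in every class shown.

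T-gated cells, which should lack these receptors, were taken as the background for these shares, and the source of their receptor UMIs was not tested. Of the 144 Mrc1 UMIs of T-gated cells labelled KO, 31 were in 1 cell. At full depth, an Mrc1 UMI was found in 84.3% (82.4 to 86.0) of WT-labelled and 78.0% (76.2 to 79.9) of KO-labelled macrophage-gated cells, against 11.4% and 6.07% of T-gated cells, whose median depth was 2388 and 1810 UMIs. With each cell thinned to 1000 UMIs, leaving out 65 and 100 shallower macrophage-gated cells, the shares were 40.5% and 35.8%, against 3.54% and 2.47% in T-gated cells, of which 36 and 110 were left out. Stab1 behaved alike, with 77.0% and 70.1% of macrophage-gated cells before thinning, 37.7% and 31.6% after it, and 3.20% and 2.62% of thinned T-gated cells. Folr2 UMIs were in 37.4% and 28.2% of macrophage-gated cells and in 1.11% and 0.923% of T-gated cells, or, after thinning, in 8.45% and 7.23% against 0.337% and 0.463%. Fcrls UMIs were in 32.9% and 16.5% of macrophage-gated cells, or 5.92% and 3.91% after thinning. T-gated cells had an Fcrls UMI in 2.38% labelled WT (27 UMIs in all) and 0.264% labelled KO (2 UMIs). Granulocyte-gated cells were at 13.8 and 14.5 CPM of Fcrls, with overlapping intervals, from only 11 and 4 UMIs. Of these, 6 labelled WT were in 1 cell, and all 4 labelled KO were in 1 cell. The part of this background in the macrophage values was not tested.

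Between the libraries the macrophage receptors moved in unlike directions. Fcrls was lower in macrophage-gated cells labelled KO, and so was the rare Lyve1. Mrc1 and Stab1 were slightly lower, Msr1 and Cd36 slightly higher, and the interval of the Folr2 ratio included 0. Of the 6 members at 10 CPM or more, 1 was past a log2 ratio of 0.5 downwards, where 0.862% of 7655 genes were, and 0 were past it upwards, where 1.62% of genes were. The median log2 ratio of the 6 members was -0.14, beside 0.02 for all genes compared. A single gene decides the member count, which is therefore read gene by gene.

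Fcrls was at 75.8 CPM (72.0 to 79.8; 1468 UMIs) in macrophage-gated cells labelled WT and at 41.0 CPM (38.1 to 44.1; 736 UMIs) in those labelled KO, a log2 ratio of -0.89 (-1.02 to -0.76). With the pseudocount used for calls, this ratio lay at percentile 0.131 of all genes compared. No single cell carried the difference, since the highest held 20 UMIs in the library labelled WT and 11 in that labelled KO. After thinning to equal depth the log2 ratio was -0.56. With monocyte-gated cells added to the class it was -1.16. Monocyte-gated cells, 956 labelled WT and 2426 labelled KO, were at only 6.51 and 4.33 CPM of Fcrls, so this pooled ratio also depends on the class mix.

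Mrc1 was at 596 CPM (585 to 607) under the WT label and 521 CPM (510.3 to 532) under the KO label, a log2 ratio of -0.19 (-0.23 to -0.15). Stab1, at 589 and 504 CPM, had nearly the same ratio, -0.22 (-0.26 to -0.18). These intervals exclude 0 but both ratios are under the fold used for calls, at percentiles 9.21 and 6.77 of all genes compared. Folr2, the folate receptor, was at 87.8 CPM (83.7 to 92.1) under the WT label and 82.7 CPM (78.6 to 87.0) under the KO label, with a log2 ratio of -0.09 (-0.19 to 0.01). The ratio of Folr2 was -0.26 as a mean over cells, -0.33 in thinned cells and -0.35 with monocyte-gated cells added, each outside that interval. With monocyte-gated cells added, the ratio was -0.37 for Mrc1 and -0.47 for Stab1. These pooled ratios, and that of Folr2, also depend on the share of monocyte-gated cells, which differed between the libraries.

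The class A receptor Msr1 and the fatty acid receptor Cd36 went the other way. Msr1 was at 368 CPM (359.8 to 377) under the WT label and 441 CPM (431 to 451) under the KO label, a log2 ratio of 0.26 (0.21 to 0.31). Cd36 was at 230.3 CPM (224 to 237) in the first library and 281 CPM (273 to 289) in the second, and its log2 ratio was 0.29 (0.23 to 0.34). Neither was past the fold used for calls, at percentiles 91.2 and 93.01. The share of macrophage-gated cells with a UMI did not rise with these levels at full depth, from 81.0% to 80.5% for Msr1 and from 59.8% to 56.3% for Cd36, but after thinning it was 29.4% and 34.8% for Msr1 and 17.6% and 19.4% for Cd36. In thinned T-gated cells the shares were 3.04% and 2.31% for Msr1 and 1.52% and 1.85% for Cd36.

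**Figure D2:**
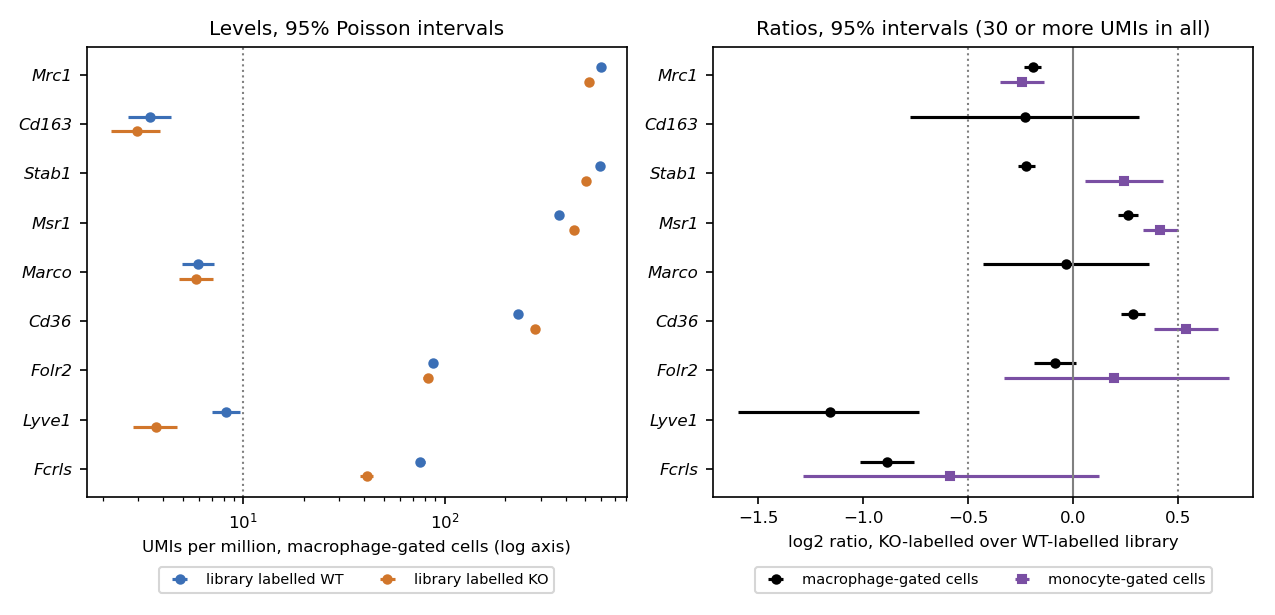
Left, level of each receptor gene in macrophage-gated cells of the 2 libraries in CPM on a log axis, with 95% Poisson intervals and a dotted line at 10 CPM. Right, log2 ratio of the KO-labelled over the WT-labelled library in macrophage-gated (circles) and monocyte-gated (squares) cells with 95% intervals and dotted lines at the fold of 0.5. Fcrls (-0.89) and Lyve1 (-1.16) lie left of the lower line in macrophage-gated cells, and Stab1 lies on opposite sides of 0 in the 2 classes.

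The other 3 receptors were rare in these tumours. Lyve1 (chr7:110850607-110863239) gave 159 UMIs in 43 macrophage-gated cells labelled WT and 66 UMIs in 27 cells labelled KO, or 8.21 CPM (6.98 to 9.59) and 3.68 CPM (2.84 to 4.68). Its log2 ratio was -1.16 (-1.60 to -0.74), but 7 cells held at least 50% of the UMIs under the WT label and 5 cells under the KO label, and both levels were below the 10 CPM asked for a call. Cd163 (chr6:124304656-124330527) gave 67 UMIs in 41 cells and 53 UMIs in 24 cells, or 3.46 and 2.95 CPM, a log2 ratio of -0.23 (-0.78 to 0.31). Its highest level, in plasmacytoid DC-gated cells, rested on 2 and 3 UMIs and overlapped that of macrophage-gated cells in both libraries. Marco (chr1:120474538-120505024) gave 116 UMIs in 24 cells and 105 UMIs in 17 cells, or 5.99 and 5.85 CPM. A single cell labelled WT held 47 of the Marco UMIs, or 40.5%, so its level describes a few cells rather than the class.

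Endothelial cells also make Lyve1, Stab1 and Cd36, and platelets and adipocytes make Cd36, so the markers of these cells, and those of fibroblasts and melanoma cells, were followed in macrophage-gated cells. Of 7 endothelial markers 5 were detected in each library, together at 12.8 CPM under the WT label and 15.7 CPM under the KO label, with Cldn5 and Emcn at 0 in both. Lymphatic endothelial markers summed to 0.155 and 0.724 CPM, from 3 and 13 UMIs, with 1 of 3 detected under the WT label (Prox1 and Ccl21a at 0) and 2 of 3 under the KO label (Ccl21a at 0). The 4 platelet markers summed to 7.33 and 6.63 CPM with Gp1bb at 0 in both and Gp9 at 0 under the KO label, the 3 adipocyte markers were all at 0, the 4 fibroblast markers summed to 2.84 and 1.95 CPM with Dcn at 0 under the KO label, and the 5 melanoma markers, all detected, summed to 70.2 and 75.2 CPM. The part of these cells in the receptor values was not tested.

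In monocyte-gated cells, 5 members reached 10 CPM, of which 0 were past the fold downwards, where 2.16% of 7415 genes were, and 1 was past it upwards, where 3.74% were. That gene was Cd36, at 99.4 CPM (90.6 to 109) under the WT label and 144 CPM (137 to 152) under the KO label, a log2 ratio of 0.54 (0.39 to 0.69). It was just under the fold, at 0.49, as a mean over cells and, at 0.497, with a stricter gate, both alternatives added after seeing the data. Msr1 was higher as well, with a log2 ratio of 0.41 (0.33 to 0.50), and Mrc1 was lower, with -0.24 (-0.35 to -0.14). The directions of Mrc1, Msr1 and Cd36 were thus shared with macrophage-gated cells of the same libraries. Stab1 differed, at 70.0 CPM under the WT label and 82.7 CPM under the KO label, a log2 ratio of 0.24 (0.06 to 0.43) against -0.22 in macrophage-gated cells. This opposite direction was not tested, and in thinned cells the monocyte ratio of Stab1 was 0.02. Folr2 was near the limit of 10 CPM, with a log2 ratio of 0.19 (-0.33 to 0.74).

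Among macrophage-gated cells, 3 states are described: cycling cells (349 labelled WT and 357 labelled KO) and cells above (523 and 703) or below (430 and 436) the cut on MHC class II genes. The receptors were not spread evenly over these states, and MHC-II-high cells had the lowest level of Mrc1, Stab1, Msr1, Cd36 and Folr2 among them in both libraries. Stab1 was highest in MHC-II-low cells, at 845 CPM (819 to 873) and 753 CPM (724 to 783), against 362 and 329 CPM in MHC-II-high cells. Mrc1 had the same order at its ends, from 721 and 672 CPM in MHC-II-low cells to 487 and 441 CPM in MHC-II-high cells. Folr2 was at 118 and 131 CPM in MHC-II-low cells and 42.3 and 40.2 CPM in MHC-II-high cells. The lipoprotein receptors Cd36 and Msr1 followed this order too. Cd36 was at 251 CPM (237 to 266) and 337 CPM (318 to 358) in MHC-II-low cells, against 149 and 157 CPM in MHC-II-high cells. Msr1 was at 417 and 496 CPM in MHC-II-low cells and 293 and 350.1 CPM in MHC-II-high cells.

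At full depth, the log2 ratio of Fcrls was below 0 in each of the 3 states: -0.84 (-1.06 to -0.63) in cycling, -0.32 (-0.60 to -0.04) in MHC-II-high and -0.97 (-1.22 to -0.73) in MHC-II-low cells. Its level under the WT label was 42.0 CPM in MHC-II-high cells against 114 CPM in MHC-II-low cells. The ratio was smallest in size in MHC-II-high cells, a difference between states that was not tested. In thinned MHC-II-high cells Fcrls was at 31.9 and 42.9 CPM, opposite in direction, from 12 and 22 cells with a UMI. It was at 102 and 90.4 CPM in thinned cycling cells and at 119 and 66.0 CPM in thinned MHC-II-low cells. Msr1 ratios lay between 0.25 and 0.30 in these states, and those of Mrc1 between -0.21 and -0.10. Cd36 ratios ranged from 0.07 (-0.06 to 0.21) in MHC-II-high to 0.43 (0.31 to 0.54) in cycling cells. Lyve1 differed most in cycling cells, with 66 UMIs in 12 cells labelled WT and 7 UMIs in 4 cells labelled KO.

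**Figure D3:**
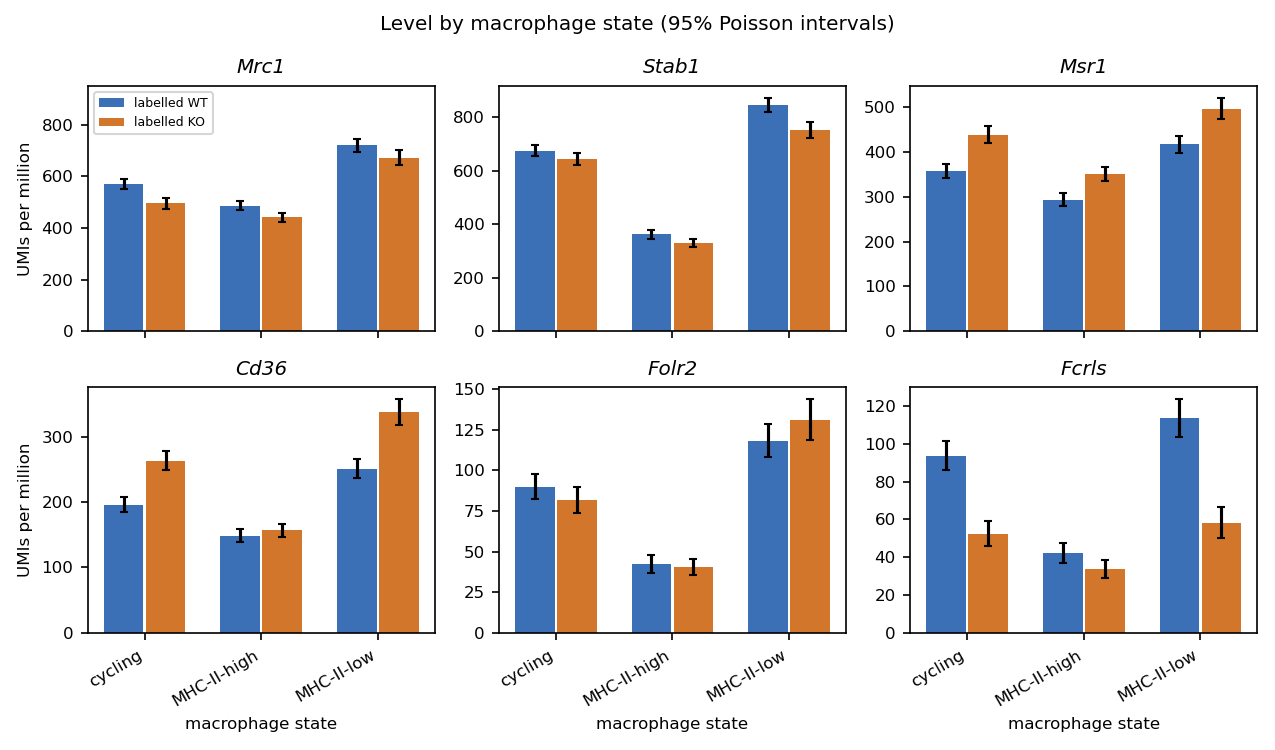
Level of 6 receptor genes in CPM (vertical axes from 0) in 3 states of macrophage-gated cells, for the libraries labelled WT (blue) and KO (orange), with 95% Poisson intervals. Stab1 and Mrc1 are highest in MHC-II-low cells, and at this full depth the WT-labelled bar of Fcrls exceeds the KO-labelled bar in all 3 states.

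Leiden clusters built without the 9 genes gave 6 clusters with at least 50 macrophage-gated cells in each library, numbered 0, 1, 5, 6, 9 and 13, with 266, 576, 170, 157, 259 and 87 cells labelled WT and 314, 602, 275, 245, 254 and 91 labelled KO. The other 88 macrophage-gated cells labelled WT and 187 labelled KO lay in clusters with fewer such cells and enter no value by cluster. Leading genes were Ltc4s, Ednrb and Ccr2 in cluster 0, Ch25h, Vcam1 and Ccl8 in cluster 1, Ccl24, Fn1 and Spp1 in cluster 5, Mmp12, Vegfa and Hilpda in cluster 6 and the mitotic genes Ube2c, Prc1 and Top2a in cluster 9. Cluster 13 was led by the T and NK genes Gzma, Nkg7 and Cd3d and also held 37 T-gated cells. Without its cells the ratios of Fcrls and Lyve1 were -0.86 and -1.12.

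In cluster 0 the ratio of Fcrls had the opposite sign. Fcrls was there at 39.0 CPM (29.9 to 50.1) under the WT label and 70.5 CPM (57.2 to 85.9) under the KO label, a log2 ratio of 0.85 (0.38 to 1.34). In the other clusters the ratio of Fcrls was -0.84 in cluster 1, -0.33 in cluster 5 (-0.87 to 0.20), -1.34 in cluster 6, -1.002 in cluster 9 and -1.49 in cluster 13. Fcrls was thus higher under the KO label in 1 cluster and lower in 4, with the interval of cluster 5 crossing 0. Stab1 (0.29, 0.10 to 0.47) and Mrc1 (0.18, 0.06 to 0.31) were also higher under the KO label in cluster 0, while their ratios ranged from -0.45 to 0.06 and from -0.30 to -0.18 in the other clusters. Msr1 had a ratio above 0 in all 6 clusters, from 0.07 to 0.38, with intervals that included 0 in clusters 5 and 13. The differences between clusters were not tested.

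Cd36 was highest in cluster 6, whose leading genes Vegfa and Hilpda are known as hypoxia-induced genes, at 485 CPM (451 to 522) and 534 CPM (502 to 568). It was next highest in cluster 5, at 324 and 405 CPM, and lowest in cluster 0, at 125 and 173 CPM. Stab1 was at 775 and 678 CPM in cluster 1 and 668 and 694 CPM in cluster 9, against 259.6 and 199.7 CPM in cluster 5. Folr2 was lowest in cluster 5 as well, at 37.1 CPM (28.7 to 47.2) under the WT label and 58.0 CPM (48.4 to 68.9) under the KO label, with a log2 ratio of 0.64 (0.21 to 1.10).

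**Figure D4:**
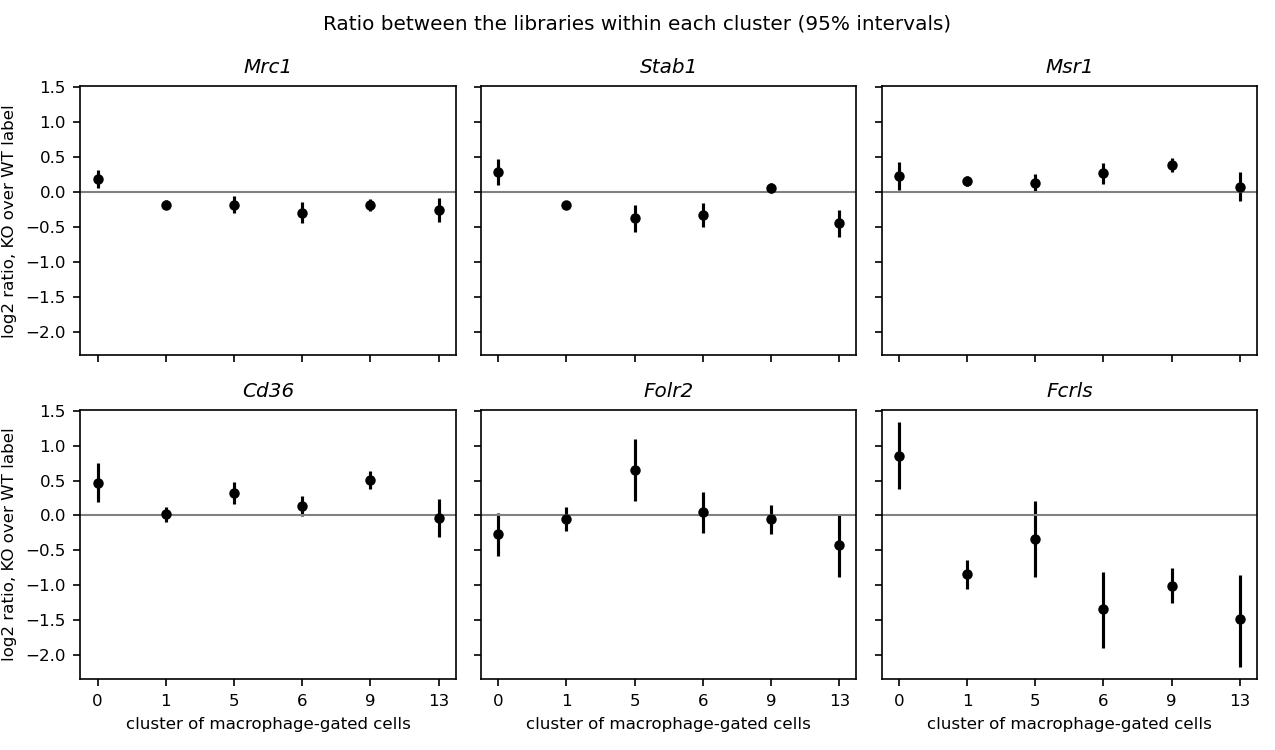
Log2 ratio of the KO-labelled over the WT-labelled library (vertical axis) for 6 receptor genes within each of the 6 clusters of macrophage-gated cells with at least 50 in each library (horizontal axis, cluster number), with 95% intervals. Fcrls is above 0 in cluster 0 (0.85) and below 0 in the others, with an interval that crosses 0 in cluster 5, and Msr1 is above 0 in all 6, with intervals that include 0 in clusters 5 and 13.

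The rare receptors Lyve1 and Cd163 gathered in cluster 0. It held 53.5% of the Lyve1 UMIs of macrophage-gated cells labelled WT (85 of 159) and 81.8% under the KO label (54 of 66), with 16.6% and 16.0% of the cells. Lyve1 was there at 54.4 CPM (43.5 to 67.3) in the first library and 38.8 CPM (29.2 to 50.7) in the second, and the interval of its log2 ratio of -0.49 (-1.01 to 0.02) includes 0. Outside it, cluster 9 held 55 Lyve1 UMIs in 7 cells labelled WT and 4 UMIs in 3 cells labelled KO. Cd163 was at 15.4 CPM (9.84 to 22.9) in cluster 0 of the library labelled WT, which overlapped its level in cluster 5 (7.30 CPM, 3.89 to 12.5). Under the KO label it was at 17.3 CPM (11.1 to 25.7) in cluster 0, and the intervals of the other 5 clusters lay below that.

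**Figure D5:**
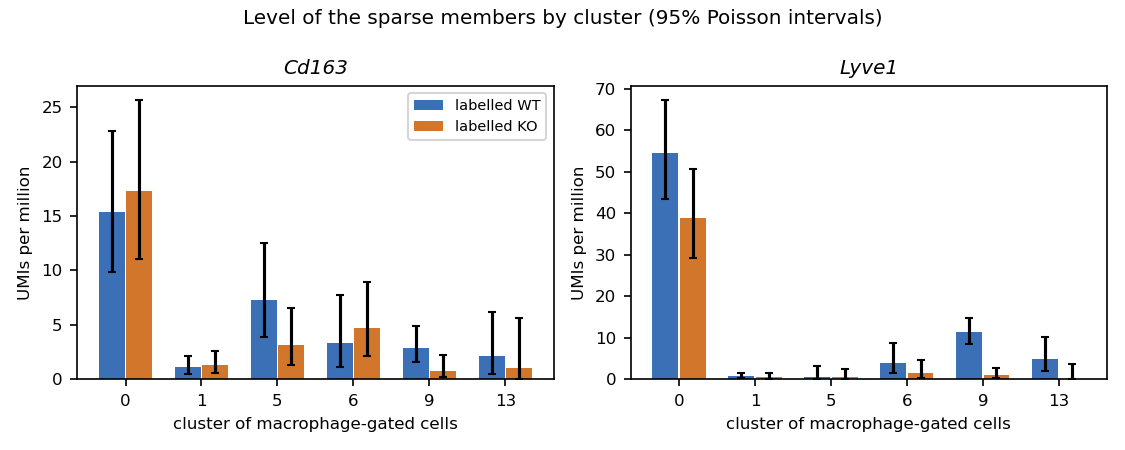
Level of Cd163 (left) and Lyve1 (right) in CPM (vertical axis from 0) in the 6 clusters of macrophage-gated cells with at least 50 in each library (horizontal axis), for the libraries labelled WT (blue) and KO (orange), with 95% Poisson intervals. Both genes are highest in cluster 0, where Lyve1 is at 54.4 and 38.8 CPM.

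Cells with a Lyve1 UMI were few, 43 labelled WT and 27 labelled KO, or 2.68% and 1.37% of macrophage-gated cells. A Lyve1 UMI was also in 0.318% of T-gated and 0.956% of granulocyte-gated cells labelled WT, and in 0% of both labelled KO. After thinning, the WT-labelled shares were 0.390% of macrophage-gated and 1.22% of granulocyte-gated cells. The part of background was not tested. Macrophage-gated cells with a Lyve1 UMI had median depths of 10923 and 7160 UMIs, close to the 10065 and 7332 of those without. Of these cells 58.1% and 63.0% were in cluster 0, against 15.4% and 15.3% of cells without, so the comparison is partly one between clusters. Folr2, Mrc1, Stab1 and Cd163 were higher in cells with a Lyve1 UMI in both libraries. Folr2 was at 399 CPM (348 to 456) and 407 CPM (338 to 486) in cells with a Lyve1 UMI and at 78.7 and 77.2 CPM in those without. Mrc1 was at 1052 and 1035 CPM against 582 and 512 CPM, and Stab1 at 708 and 928 CPM against 585 and 497 CPM. Cd163 was at 18.1 CPM (8.70 to 33.4) and 86.8 CPM (56.7 to 127) against 3.03 and 1.53 CPM, from only 10 and 26 UMIs in cells with a Lyve1 UMI, and 4 cells labelled KO held at least 50% of all Cd163 UMIs. Within cluster 0, where 25 and 17 cells had a Lyve1 UMI, Folr2 was at 549 and 479 CPM in them against 62.3 and 63.5 CPM in the rest, Mrc1 at 967 and 1299 CPM against 562 and 632 CPM, and Stab1 at 711 and 807 CPM against 230.1 and 309.5 CPM. These intervals did not overlap in either library, whereas those of Cd163 in cluster 0 overlapped under the WT label. Cd36 was also higher within cluster 0, at 265 and 492 CPM with a Lyve1 UMI against 103 and 136 CPM without, and its intervals did not overlap. Over all macrophage-gated cells the Cd36 intervals overlapped under the WT label (250 and 230 CPM) but not under the KO label (504 and 277 CPM). Msr1 did not follow, at 328 and 444 CPM with a Lyve1 UMI and 369 and 441 CPM without, with overlapping intervals in both libraries. Fcrls did not separate these cells under the WT label (61.7 against 76.2 CPM, overlapping intervals) but did under the KO label (147 against 39.2 CPM).

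Within macrophage-gated cells thinned to 1000 UMIs, 23.0% under the WT label and 24.7% under the KO label had no UMI of any of the 9 genes, and the mean number of receptors detected was 1.40 and 1.33. Stab1 was detected more often where Folr2 was. Stab1 UMIs were in 57.7% (48.7 to 66.3) of cells with a Folr2 UMI and 35.8% (33.3 to 38.4) of cells without in the library labelled WT, and in 47.4% (38.8 to 56.2) and 30.4% (28.2 to 32.6) in that labelled KO. Fcrls showed the same with Stab1, at 56.0% against 36.5% and 56.2% against 30.6%. Cd36 and Mrc1 showed no such difference in the library labelled WT, where Mrc1 UMIs were in 40.4% of cells with and 40.5% of cells without a Cd36 UMI, and overlapping intervals under the KO label (39.0% and 35.0%). Thinned cells share the same depth, and these shares are descriptions over cells of a single library each.

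Over the 22 sums of 11 classes and 2 libraries, the gene most like Mrc1 among 6282 was Pid1 (Pearson r = 0.93 on log2 CPM), followed by the endocytic adaptor Dab2 (0.92). For Stab1 they were Cd93 and C1qa (0.87 and 0.85), for Msr1 the chemokine gene Ccl7 and Adgre1, which encodes F4/80 (0.95 and 0.94), and among those for Cd36 was the chemokine gene Ccl2 (0.85). Folr2 was most like the complement gene C1qb and Ms4a7 (0.86 and 0.85), and Fcrls most like Gas6, a ligand of the engulfment receptors, and Cd93 (0.84 and 0.81). Among the receptors, Mrc1 and Msr1 (0.83) were more alike than Stab1 and Cd36 (0.40). These points share libraries and cell depth within each class, and the values are descriptions. C1qa, C1qb, Adgre1 and Ms4a7 also define the macrophage gate, so likeness to them over class sums is partly built in.

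Genes of the same processes, from lists chosen with earlier results known, were compared in macrophage-gated cells. With 0.862% of all genes past the fold downwards and 1.62% upwards, a count of 0 or 1 among 4 to 13 genes sets no list apart. Of 15 other scavenger receptors, 6 were at 10 CPM or more (Scarb1, Scarb2, Cd68, Scarf1, Cxcl16 and Lrp1), and 0 were past the fold in either direction, with a median log2 ratio of -0.00013. Of 20 resident-type macrophage genes 13 were at 10 CPM or more, with a median of -0.21, beside 0.02 for all genes compared, with a lower quartile of -0.08. In that list Cbr2, a carbonyl reductase gene, was lower, at 86.6 and 58.5 CPM (log2 ratio -0.56, -0.68 to -0.45), and the chemokine gene Ccl24 was higher, at 55.7 and 90.1 CPM (0.70, 0.58 to 0.81), with 299 of its 1078 UMIs under the WT label in 1 cell. Of 13 regulator genes, among them Maf, Spi1 and Pparg, 11 were at 10 CPM or more and 0 were past the fold, with a median of 0.07. Of 9 genes of haem and iron handling 8 were at 10 CPM or more, with a median of -0.08, and Slc40a1, which encodes the iron exporter ferroportin, was lower, at 41.5 and 25.5 CPM (-0.71, -0.87 to -0.54). Of 9 genes of folate handling 4 were at 10 CPM or more, with 0 past the fold and a median of 0.01.

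In monocyte-gated cells, where 2.16% of all genes were past the fold downwards and 3.74% upwards, counts this small set no list apart either. The resident-type list had 10 genes at 10 CPM or more, of which Cbr2 was lower (21.9 and 15.2 CPM) and Ccl8 higher (126 and 240.3 CPM, with 416 of 2441 UMIs under the KO label in 1 cell). The iron list had 7, of which Tfrc, the transferrin receptor gene, was higher (7.77 and 12.9 CPM). The other scavenger receptors (5 genes), the regulators (12) and the folate genes (2) at 10 CPM or more had 0 past the fold in either direction.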

How the data were processed

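A single 10x Chromium library (3′ kit, v3) was made from the live CD45+ tumour cells of each genotype. The authors mapped the reads to mm10, and the deposited UMI counts carry Cell Ranger version 4.0.0 in their header. They were whole, unnormalised counts of 31053 genes in a single matrix. A deposited table of cells, whose entries other than counts are names, gave the library of each barcode, and 0 columns of samples were left unmapped. Cells with at least 200 genes and at most 10% mitochondrial UMIs were kept. Scrublet (scanpy 1.11.5) marked 1 cell per library by its automatic threshold, too few to have worked, so the highest scores were removed at 0.8% per 1000 cells, 256 labelled WT and 532 labelled KO.

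Each cell took the class with the highest mean marker level, each marker's log-transformed level scaled to its 90th percentile, where this score reached 0.25. Cells in which another lineage reached 60% of the top score were set aside as mixed. The gate thresholds were set after the marker scores had been seen. Members and gene lists were chosen with earlier results of these data known. UMIs were summed per class and library and expressed per 1000000 UMIs of the class (CPM). Shares were also taken after thinning each cell to 1000 UMIs. Clusters came from leidenalg 0.10.2 at resolution 1, on 2000 variable genes and 30 components, with the 9 receptor genes left out. Seurat was not used, so classes and clusters are rebuilt and may differ from the study's. With 1 library per group there was no test across genes, and a gene was called where its log2 ratio (pseudocount 1 CPM) was 0.5 or more in size, among genes that reached 10 CPM in a library, without ribosomal protein, mitochondrial and haemoglobin genes. Named genes were the 9 receptors, Mettl3 and Ptprc as checks, list genes past that fold, and for each receptor at 10 CPM the 2 genes most alike across classes, among genes at 50 CPM or more. The ratio and its interval were tested on simulated data. Coordinates came from GENCODE M21 on GRCm38, the build of mm10, matched by identifier for 31011 of 31053 genes. The alternatives tried were other cell weights, thinning, clusters in place of gates, doublets or mixed cells kept, stricter filters and gates, other size factors and pseudocounts, and single cells left out. A state of macrophage-gated cells, set aside before the cut on MHC class II genes, and some single genes are not reported here. Analyses ran in python 3.11.15 with scipy 1.17.1.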

Additional observations from a re-analysis of the deposited data

Results flagged for a closer look

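Several receptors had ratios between the libraries that pointed in opposite directions in different groups of cells, each with a counting interval on its own side of 0. With 1 library per genotype, none of these differences was tested. Stab1 had a log2 ratio of -0.22 in macrophage-gated and 0.24 in monocyte-gated cells. Within macrophage-gated cells Stab1 was at 0.29 in cluster 0 and -0.45 in cluster 13, which also holds T-gated cells. Mrc1 was at 0.18 in cluster 0 and -0.30 in cluster 6. Fcrls was at 0.85 in cluster 0 and -1.49 in cluster 13. Marco was at 5.39 (2.85 to 10.7) in cluster 6, from 1 UMI under the WT label and 53 UMIs in 6 cells under the KO label, 24 of them in 1 cell. In cluster 1 Marco was at -1.10, from 76 UMIs under the WT label and 29 under the KO label, but 47 of the 76 were in 1 cell, so its direction there rests on that cell.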

How the results depend on the processing

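No paired analysis was possible because there was 1 library per genotype. Each ratio in macrophage-gated cells was recomputed under 13 alternatives, 2 of them (without the cluster that also holds T-gated cells, and with monocyte-gated cells added) chosen after seeing the data. The ratios of Mrc1, Cd163, Stab1, Msr1, Cd36, Folr2, Lyve1 and Fcrls kept their sign in all 13 and that of Marco in 9 (-0.43 to 0.43). The intervals of the main ratios of Cd163 (-0.78 to 0.31) and Folr2 include 0, so a kept sign does not give these genes a direction. Fcrls ranged from -1.16 with monocyte-gated cells added to -0.56 with thinned cells, and Lyve1 from -1.90 as a mean over cells to -0.64 with thinned cells. Cd163 reached -1.60 with thinned cells, where 4 cells labelled WT and 2 labelled KO held a UMI of it. The thinned Lyve1 ratio rested on 6 cells in each library. The number of receptors called lower was 2 instead of 1 both with the mean over cells and with equal weights for clusters, since Lyve1 then passed 10 CPM (17.6 and 12.7 CPM under the WT label). The number called higher stayed at 0. The share of all genes called lower was 1.53% with no filter on low values and 0.248% with a pseudocount of 10 CPM, and that called higher 2% and 0.875%. The number of receptors highest in macrophage-gated cells in both libraries was 7, 6 with thinned cells and 8 with clusters in place of gates. In monocyte-gated cells, where the alternatives were added after seeing the data, Cd36 ranged from 0.49 to 0.86, Stab1 from 0.02 to 0.34 and Folr2 from -0.37 to 0.47 over 8 alternatives, so Folr2 had no stable sign. The depth allows counting intervals of a few percent for Mrc1, Stab1, Msr1 and Cd36, while Cd163, Marco and Lyve1 rest on 53 to 159 UMIs per library in the macrophage class.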
